A study of Mus musculus with 12 samples.

Results

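The genes described here are the Slc25 carriers, the family of transport proteins that move metabolites, nucleotides and cofactors across the inner mitochondrial membrane. They were taken as every measured gene whose symbol is Slc25a followed by a number, with the brightest of several probe sets kept for a gene, and this gave 46 genes of the 19938 measured. Transcripts of brown adipose tissue (BAT) and white adipose tissue (WAT) from male mice aged 20 weeks were hybridised to Affymetrix arrays in a single colour. The mice either lacked Per2, a repressor of the circadian clock (Per2-/-, here KO), or carried it intact (per2+/+, here WT); all were kept in light-dark cycles, ate the same chow freely and were killed at one time of day. The 4 groups, BAT of KO, BAT of WT, WAT of KO and WAT of WT, held 3 arrays each, described as biological replicates. Whether a BAT and a WAT array came from the same animal, and which white depot was taken, are not stated in the sources used here, and the KO mice come from a single mutant line. Values are PLIER intensities, a linear summary of a gene's probes, so levels are compared between groups for a gene and not between genes.

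Each carrier has the same fold of 3 repeated units and differs in what it binds. Some exchange ADP for ATP or bring in phosphate, others move citrate, malate, amino acids, carnitine esters of fatty acids, coenzyme A, NAD, nucleotides, iron or glutathione. Brown fat burns fatty acids to make heat and is packed with mitochondria, so its carriers bring substrate and cofactors to the matrix. White fat stores triglyceride. In whole tissue, fewer cells of a type and less RNA per cell cannot be told apart.

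The Per2 probe set averaged 149 ± 9.85 in BAT of KO and 165 ± 8.22 in BAT of WT, and 132 ± 35.03 in WAT of KO and 112 ± 11.4 in WAT of WT, and was not called in either depot. Where its probes lie, inside or outside what was deleted, is unknown here, and the probe set therefore checks no label. The arrays carried marks of other tissues, and one stood apart. The summed intensity of 13 brown-fat markers was 37999 to 41364 in BAT of KO and 37129 to 41696 in BAT of WT, against 6496, 6619.8 and 11105 in the 3 arrays of WAT of KO and 594 to 711 in WAT of WT. For 12 measured epididymis and testis markers the sums were 132 to 144 in BAT of KO and 133 to 292 in BAT of WT, against 55156, 57056 and 15872 in WAT of KO and 50591 to 53989.5 in WAT of WT. The 17 skeletal muscle markers summed to 6058, 20387 and 8042 in BAT of KO and 10813, 19047 and 45166 in BAT of WT, against 666, 2047 and 1430.3 in WAT of KO and 318 to 321 in WAT of WT. The 11 white-fat markers summed to 4383 to 5141 in BAT of KO and 4141 to 4465 in BAT of WT, against 11336, 11463 and 24187 in WAT of KO and 12294 to 13911 in WAT of WT. No marker of these lists was under 1 in every array. Replicate 3 of the WAT of KO correlated at 0.954 to 0.956 with the other arrays of its group (Spearman, across genes) and at 0.886 to 0.897 with BAT, where the other WAT arrays reached 0.805 to 0.837 with BAT. Values without it are also given for the carriers and partner genes called in WAT between genotypes, and for some other results.

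Brown and white fat differed in most carriers. In KO mice 36 of the 46 were called, 25 higher and 11 lower in BAT, and in WT mice also 36, 25 higher and 11 lower; the call here and below is a limma test with a Benjamini-Hochberg adjusted p under 0.05 over all genes. Over all genes 47.0% were called in KO mice, 20.2% higher and 26.8% lower in BAT, and 50.6% in WT mice, 20.3% higher and 30.3% lower. The median carrier differed by 0.45 in KO and 0.44 in WT on the log2(intensity + 16) scale, where the median of all genes was 0.01 in KO and -0.03 in WT. Of the carriers, 24 were called higher in BAT in both genotypes (15.1% of all genes), 10 lower in both (24.2%), 4 in one genotype and 8 in neither. The calls depended on scaling. After median centring 43 carriers were called in KO and 42 in WT, beside 12723 and 13276 of the 19938 genes. Slc25a18, Slc25a28, Slc25a38, Slc25a43 and Slc25a54 were then called in both genotypes, so a carrier not called below may differ under another scaling. All log2 values below are on this scale, which makes the differences of dim genes smaller than the ratios of their intensities. Each SE of a log2 difference rests on a spread per gene shared by all 12 arrays, not on the arrays compared alone.

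**Figure D1:**
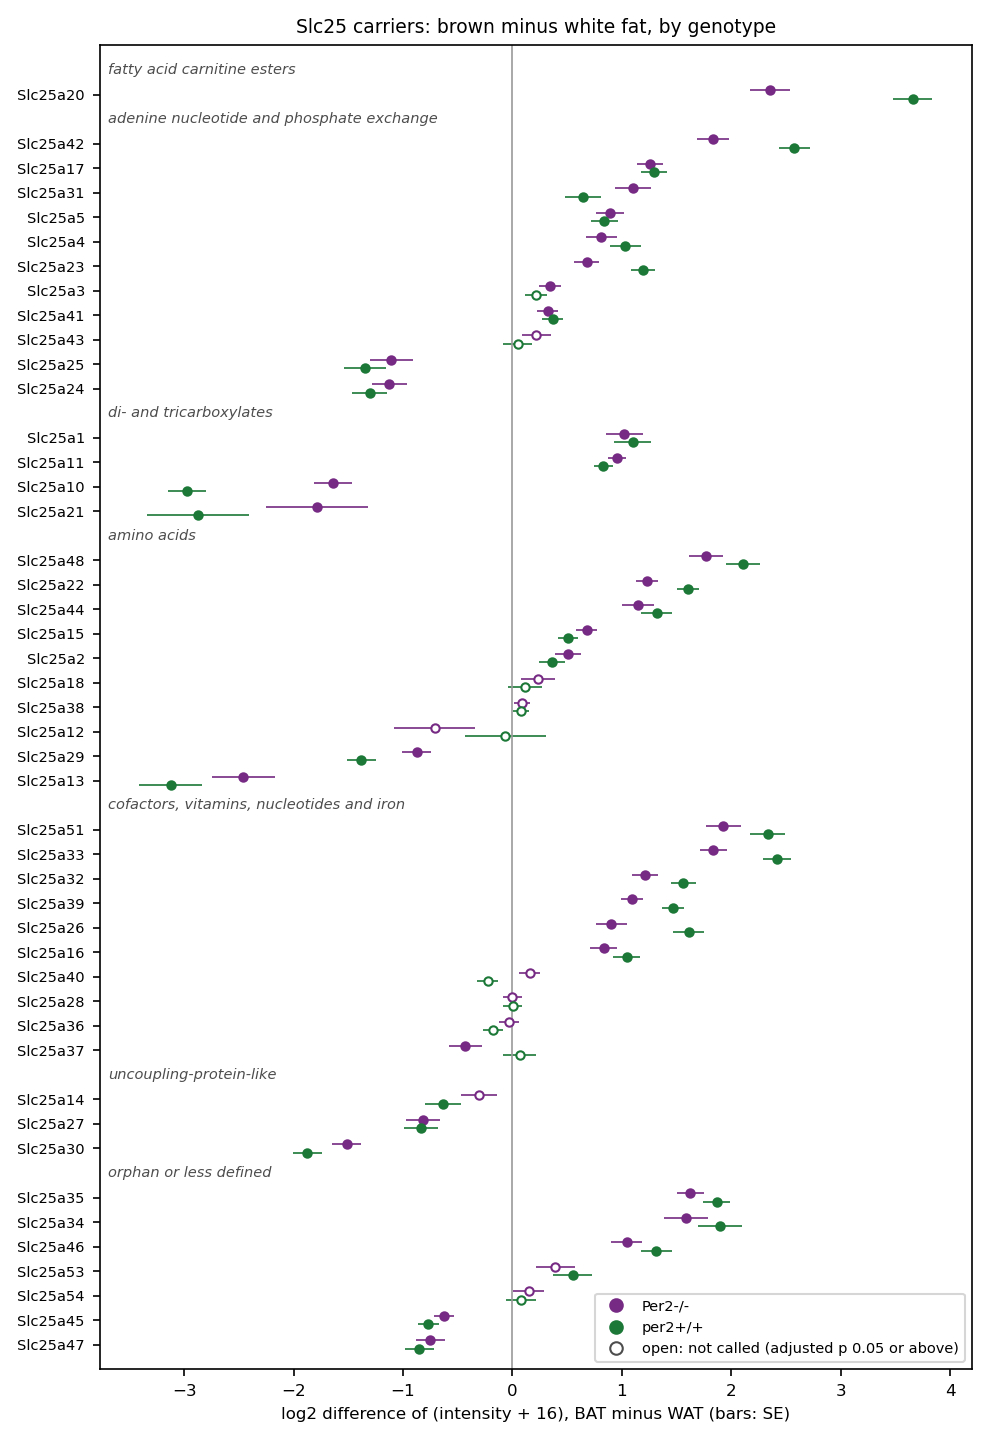
Log2 difference of (intensity + 16), BAT minus WAT, for the 46 Slc25 carriers grouped by what they carry, in Per2-/- mice (purple) and per2+/+ mice (green). Groups held 3 arrays each, and bars are 1 standard error from a spread shared by all 12 arrays. Filled points passed the test. Slc25a20 lies farthest to the right in both genotypes and Slc25a13 farthest to the left.

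Slc25a20, the carrier that takes acylcarnitines into the matrix for fatty acid oxidation, had the most positive BAT minus WAT difference of the family in both genotypes. Its intensity was 4514, 4703 and 4689.5 in the BAT arrays of KO mice and 4247, 4043 and 3856 in those of WT mice, against 698, 777 and 1315 in WAT of KO and 320.3, 292 and 306 in WAT of WT. Every BAT array lay above every WAT array. The log2 difference, BAT minus WAT, was 2.35 ± 0.18 (SE) in KO mice, adjusted p = 1.70e-06, and 3.66 ± 0.18 in WT mice, adjusted p = 4.26e-08.

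Among the 11 carriers of adenine nucleotides and phosphate, 8 were higher and 2 lower in BAT of KO mice, and 7 were higher and 2 lower in BAT of WT mice. Slc25a42, which imports coenzyme A in exchange for adenine nucleotides, gave 701, 811 and 672 in BAT of KO and 654, 515 and 512 in BAT of WT, against 159, 194 and 229.9 in WAT of KO and 82.6, 70.7 and 87.8 in WAT of WT. The BAT arrays were all above the WAT arrays, with log2 differences of 1.83 ± 0.14 in KO (adjusted p = 1.83e-06) and 2.58 ± 0.14 in WT (adjusted p = 8.39e-08). Slc25a17, the peroxisomal carrier of coenzyme A and related nucleotides, was also higher in BAT, by 1.26 in KO and 1.29 in WT on the log2 scale.

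The ADP/ATP exchangers, which hand matrix ATP to the cytosol, were all higher in BAT. Slc25a4, the form of heart and muscle, averaged 2949 ± 317 (SD, n = 3 here and below) in BAT and 1689.6 ± 374 in WAT of KO mice, and 3140.2 ± 314 in BAT and 1522 ± 40.1 in WAT of WT mice. Slc25a5, the form of most growing cells, averaged 2623 ± 79.2 in BAT and 1424 ± 293 in WAT of KO mice, and 2535 ± 221 in BAT and 1406 ± 31.3 in WAT of WT mice. Their log2 differences were 0.81 ± 0.14 and 0.89 ± 0.13 in KO mice, and 1.03 ± 0.14 and 0.84 ± 0.13 in WT mice. Slc25a5 has 3 probe sets with nearly the same values, and RNA of near-identical copies could share their signal. Slc25a31, the exchanger best known from testis, was higher in BAT by 1.10 ± 0.16 in KO and 0.65 ± 0.16 in WT. It was dim, averaging 64.5 ± 16.3 in BAT and 21.1 ± 2.23 in WAT of KO mice, and 26.9 ± 8.79 in BAT and 11.1 ± 1.70 in WAT of WT mice. Slc25a3, the phosphate carrier, was called in KO mice alone, at 0.35 ± 0.10 (adjusted p = 0.0141) against 0.21 ± 0.10 in WT mice (adjusted p = 0.0998); the difference between genotypes was not called (adjusted p = 0.818). The KO call was lost without replicate 2 of BAT or replicate 1 of WAT (adjusted p up to 0.0606), in a fit of the 6 arrays compared and with the authors' deposited p-values (at most 0.123 over all alternatives). Without replicate 3 of the WAT of KO the WT difference was called (adjusted p = 0.0395).

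The 4 carriers that exchange ATP-Mg for phosphate split in opposite directions. Slc25a23 averaged 585 ± 27.00 in BAT and 362 ± 58.1 in WAT of KO mice, and 875 ± 71.4 in BAT and 373 ± 2.96 in WAT of WT mice. Slc25a24 averaged 38.8 ± 7.25 in BAT and 105 ± 30.2 in WAT of KO mice, and 35.9 ± 5.53 in BAT and 112 ± 7.89 in WAT of WT mice. Slc25a25 averaged 40.7 ± 9.96 in BAT and 105 ± 11.1 in WAT of KO mice, and 36.9 ± 15.4 in BAT and 115 ± 10.5 in WAT of WT mice. All 3 carry calcium-binding domains; Slc25a23 was higher in BAT (0.68 in KO, 1.19 in WT), whereas Slc25a24 (-1.13 and -1.31) and Slc25a25 (-1.11 and -1.35) were lower. Slc25a41, the short form without that domain, was dim in all arrays and higher in BAT by 0.32 in KO and 0.37 in WT; the KO call was lost without replicate 1 of BAT or replicate 2 of WAT (adjusted p up to 0.0623). Slc25a43, a less studied relative, was not called (0.22 in KO, 0.05 in WT).

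Carriers of di- and tricarboxylates were divided evenly. Slc25a1, which exports citrate for fatty acid synthesis, and Slc25a11, the oxoglutarate carrier of the malate-aspartate shuttle, were higher in BAT, by 1.02 and 0.96 in KO mice and by 1.10 and 0.83 in WT mice. Slc25a10, the dicarboxylate carrier that exchanges malate or succinate for phosphate, ran the other way. It read 299.9, 199 and 215 in BAT of KO and 124, 86.2 and 133 in BAT of WT, against 728, 675 and 909 in WAT of KO and 991, 964 and 1029 in WAT of WT. All WAT arrays were above all BAT arrays, and the log2 difference was -1.64 ± 0.17 in KO (adjusted p = 1.56e-05) and -2.97 ± 0.17 in WT (adjusted p = 1.24e-07). Slc25a21, the oxoadipate carrier of lysine breakdown, had 26.5, 25.8 and 18.8 in BAT of KO and 19.7, 17.98 and 20.5 in BAT of WT, against 217, 217 and 30.9 in WAT of KO and 214, 272 and 249.8 in WAT of WT. Replicate 3 of the WAT of KO was close to the BAT arrays and the other 5 WAT arrays were far above them. The log2 difference was -1.79 ± 0.47 in KO and -2.88 ± 0.47 in WT, and without that replicate it was -2.56 in KO (adjusted p = 2.63e-09). The SE in WT, which shares its spread with that replicate, was then 0.10. The KO call was lost in a limma fit of only the arrays compared (adjusted p = 0.0555). With single arrays left out its adjusted p reached 0.0356.

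In the amino acid group, 5 of 10 carriers were higher and 2 lower in BAT, in KO as in WT mice. Slc25a13, the aspartate-glutamate carrier of liver and epithelia, read 5.60, 9.82 and 10.1 in BAT of KO and 6.03, 10.9 and 11.8 in BAT of WT, against 164, 172 and 55.6 in WAT of KO and 193, 212 and 213 in WAT of WT. Its BAT arrays were all near the bottom of the scale, and among the WAT arrays replicate 3 of KO was the lowest. Slc25a13 was lower in BAT by -2.46 ± 0.29 in KO (adjusted p = 3.31e-05) and -3.12 ± 0.29 in WT (adjusted p = 3.65e-06), as signed log2 differences. Without replicate 3 of the WAT of KO the KO difference was -2.91. The epididymis and testis markers were likewise high in 5 WAT arrays, lower in replicate 3 of KO and near the bottom in BAT; their part in the Slc25a13 and Slc25a21 differences was not tested.

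The muscle and heart form of the same exchanger, Slc25a12, was not called in either genotype. It read 94.7, 256 and 151 in BAT of KO and 153, 258 and 480.4 in BAT of WT, against 300.1, 303 and 202 in WAT of KO and 258, 280.1 and 308 in WAT of WT, so the BAT arrays spread over the whole WAT range. Its log2 difference, BAT minus WAT, was -0.71 ± 0.37 in KO and -0.06 ± 0.37 in WT, and the sign of the second turned under other scalings of the arrays. Within each BAT group the order of the arrays by Slc25a12 was their order by the muscle marker sum, and for Slc25a4 likewise in WT mice and in KO mice; this was seen after the values were known, and the part of muscle was not tested.

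**Figure D2:**
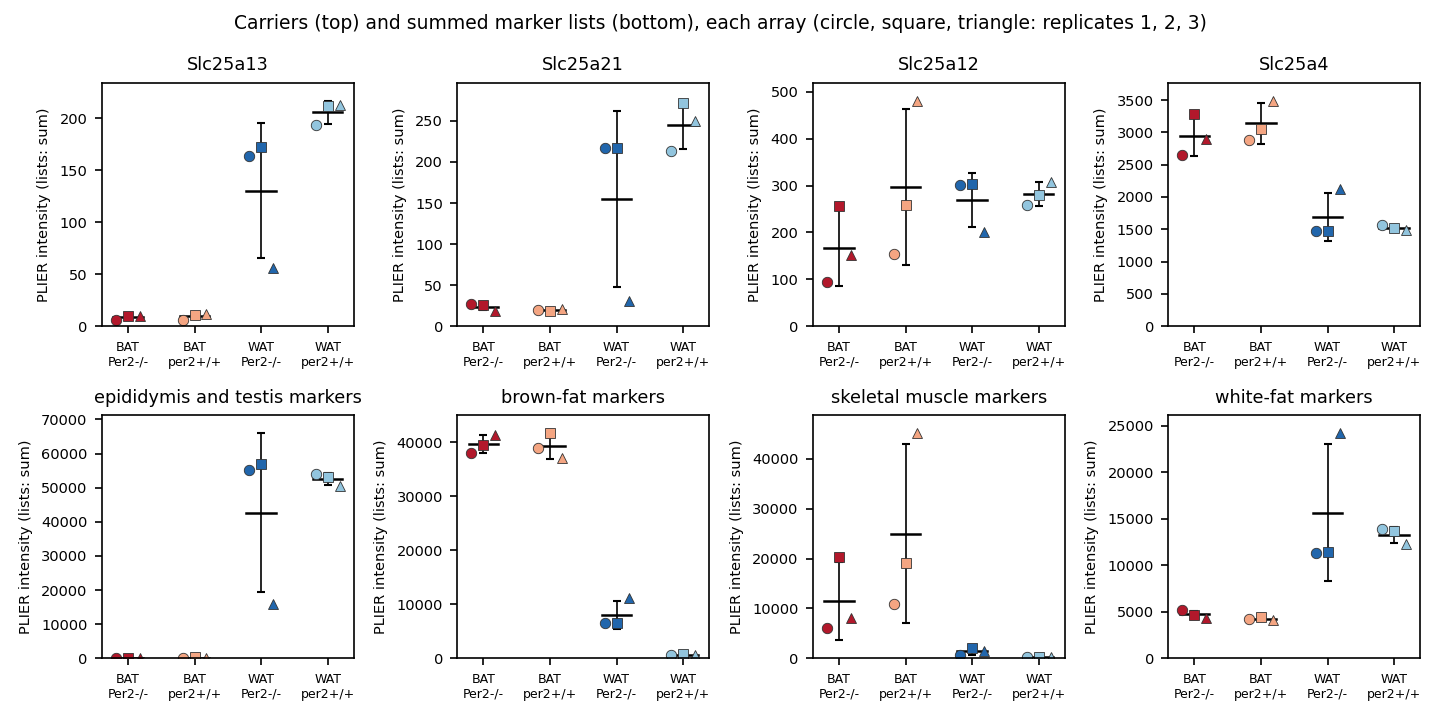
PLIER intensity of Slc25a13, Slc25a21, Slc25a12 and Slc25a4 (top) and the summed intensity of 4 marker lists (bottom) in each of the 12 arrays, with mean and SD (bars) per group of 3. Replicate 3 (triangle) of the WAT of Per2-/- mice is low for Slc25a13, Slc25a21 and the epididymis and testis list, and high for the brown-fat and white-fat lists.

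Slc25a22, a glutamate carrier, averaged 920.4 ± 33.2 in BAT and 386 ± 46.99 in WAT of KO mice, and 829 ± 59.7 in BAT and 262 ± 15.1 in WAT of WT mice, log2 differences of 1.23 ± 0.10 and 1.60 ± 0.10. Its paralog Slc25a18 was under 50 in all arrays and was not called (0.23 in KO, 0.11 in WT). Slc25a44, which brings branched-chain amino acids into mitochondria of brown fat, was higher in BAT by 1.15 ± 0.14 in KO and 1.32 ± 0.14 in WT. The ornithine carriers Slc25a15 and Slc25a2 were also higher in BAT, Slc25a15 by 0.68 in KO and 0.51 in WT and the dim Slc25a2 by 0.51 and 0.36. The Slc25a2 call in WT was lost with 64 added in place of 16, and without replicate 1 or 3 of either depot (adjusted p up to 0.102). Slc25a29, a carrier of basic amino acids, was lower in BAT by -0.87 ± 0.13 in KO and -1.38 ± 0.13 in WT, as signed log2 differences. Slc25a38, the glycine carrier that feeds haem synthesis, was not called (0.09 in KO, 0.08 in WT).

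Slc25a48 was placed with the amino acid carriers by its relatives in the family, although work in human cells ties it to choline. It gave 143, 178 and 191 in BAT of KO and 131, 94.7 and 137 in BAT of WT, against 35.7, 31.7 and 49.7 in WAT of KO and 17.2, 15.1 and 14.1 in WAT of WT. BAT was above WAT in every array, by 1.77 ± 0.15 in KO (adjusted p = 3.75e-06) and 2.11 ± 0.15 in WT (adjusted p = 6.17e-07) on the log2 scale.

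Carriers of cofactors, vitamins, nucleotides and iron included 6 of 10 that were higher in BAT in each genotype. Slc25a33, an importer of pyrimidine nucleotides for mitochondrial DNA and RNA, read 361, 400.2 and 358 in BAT of KO and 395, 415 and 410.0 in BAT of WT, against 81.9, 80.5 and 120.3 in WAT of KO and 68.9, 60.00 and 60.7 in WAT of WT. Slc25a51, the importer of NAD, read 1543, 1644 and 1681 in BAT of KO and 1721, 1435 and 1341 in BAT of WT, against 343, 371 and 557 in WAT of KO and 289.6, 312 and 252 in WAT of WT. For both, the BAT and WAT arrays did not overlap: Slc25a33 differed by 1.84 ± 0.13 in KO and 2.42 ± 0.13 in WT, and Slc25a51 by 1.93 ± 0.16 and 2.33 ± 0.16. Slc25a32 (folate and FAD), Slc25a26 (S-adenosylmethionine), Slc25a39 (glutathione) and Slc25a16 were higher in BAT by 0.83 to 1.21 in KO and 1.05 to 1.61 in WT. The relatives of 2 of these were not called: Slc25a36, the other pyrimidine nucleotide carrier, at -0.03 in KO and -0.18 in WT, and Slc25a40, the other glutathione carrier, at 0.16 and -0.23. Their signs in WT, and that of Slc25a36 in KO, turned under other scalings.

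The mitoferrins import iron for haem and iron-sulfur clusters. Slc25a28, the form of most tissues, averaged 429.8 ± 19.7 in BAT and 431 ± 24.8 in WAT of KO mice, and 451 ± 13.99 in BAT and 450.2 ± 37.1 in WAT of WT mice, and was not called (-0.0021 in KO, a sign that turned with the scaling, and 0.004 in WT). Slc25a37, the erythroid form, averaged 46.8 ± 3.80 in BAT and 69.5 ± 16.3 in WAT of KO mice, and 77.04 ± 16.1 in BAT and 72.05 ± 6.33 in WAT of WT mice. It was lower in BAT of KO (-0.43 ± 0.15, adjusted p = 0.0342) and not called in WT (0.07 ± 0.15). That call was lost in 9 of 23 alternatives, among them median centring, quantile normalization and the omission of any BAT array of KO or of replicate 1 or 2 of the WAT of KO, and the difference between genotypes was not called (adjusted p = 0.493).

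The 3 carriers that resemble uncoupling proteins were lower in BAT of WT mice, and 2 of them also in KO mice. Slc25a30, found in kidney and other tissues, read 131, 101 and 100.5 in BAT of KO and 94.4, 98.4 and 75.1 in BAT of WT, against 344, 383 and 311 in WAT of KO and 401, 382 and 325 in WAT of WT. The WAT arrays were all above the BAT arrays, and the log2 difference was -1.51 ± 0.13 in KO and -1.87 ± 0.13 in WT. Slc25a27 and Slc25a14, best known from brain, differed by -0.82 and -0.30 in KO and by -0.84 and -0.64 in WT; Slc25a14 was called in WT alone (adjusted p = 0.153 in KO and 0.00688 in WT), and median centring ended that call. The difference between genotypes was not called for Slc25a14 (adjusted p = 0.709). For comparison, Ucp1, the brown-fat uncoupling protein of the same fold, was higher in BAT by 1.80 in KO and 8.94 in WT.

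Of the 7 carriers with no firm substrate, 3 were higher and 2 lower in BAT of KO, and 4 were higher and 2 lower in BAT of WT. The related Slc25a34 and Slc25a35 averaged 169 ± 11.5 and 846 ± 44.2 in BAT of KO and 209.5 ± 57.6 and 747 ± 119 in BAT of WT. In WAT they averaged 46.6 ± 14.9 and 265 ± 40.7 in KO and 43.4 ± 7.33 and 192 ± 8.32 in WT. Their log2 differences were 1.59 ± 0.20 and 1.63 ± 0.13 in KO, and 1.90 ± 0.20 and 1.87 ± 0.13 in WT. Slc25a46, a protein of the outer membrane that shapes mitochondria, was higher in BAT by 1.04 in KO and 1.31 in WT. Slc25a45 (-0.63 and -0.77) and Slc25a47, known from liver (-0.75 and -0.85), were lower. Slc25a53 and Slc25a54 were under 50 in all arrays; Slc25a53 was called in WT alone (0.55, adjusted p = 0.0221), and that call was lost without replicate 2 of BAT or replicate 1 or 3 of WAT (adjusted p up to 0.0952). The difference between genotypes was not called for Slc25a53 (adjusted p = 0.891). Slc25a54 was not called (0.15 in KO, 0.08 in WT).

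The depot difference had the same sign in both genotypes for 43 of the 46 carriers. It was smaller in KO mice for 31 of the 36 carriers called in WT (86.1%), and for 77.1% of all genes called in WT. Choosing genes by the WT call by itself favours a smaller value in KO, so neither share measures a narrowing in KO mice. Replicate 3 of the WAT of KO lay on the BAT side of the other 2 arrays of its group for 30 of those 36 (83.3%), against 70.9% of all such genes. The direction of the calls depended on how arrays were scaled: the share of calls higher in BAT was 69.4% for the carriers in each genotype, 71.8% to 76.7% under quantile normalization or median centring, and for all genes 42.9% in KO and 40.1% in WT against 61.6% to 73.3% in KO and 60.6% to 71.1% in WT. Median centring moved the median of all genes by 0.27 in KO and 0.31 in WT, and quantile normalization by 0.12 and 0.17. Relative to the median of all genes the median carrier stood 0.44 higher in KO and 0.47 higher in WT, and 0.37 and 0.42 higher after quantile normalization.

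Loss of Per2 went with 4 called carriers in WAT, all higher in KO, of 46 tested, where 2.42% of all genes were called and 1.27% were called higher. They were Slc25a20, Slc25a42, Slc25a48 and Slc25a22. The median carrier differed by 0.01, KO minus WT, and the median of all genes by -0.01, and 14 carriers (30.4%) had an unadjusted p under 0.05, against 13.9% of all genes. The same 4 were called without replicate 3 of the WAT of KO.

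Slc25a20 read 698, 777 and 1315 in WAT of KO and 320.3, 292 and 306 in WAT of WT. All 3 KO arrays were above the WT arrays and replicate 3 was the highest. The log2 difference was 1.499 ± 0.18, a 2.83-fold rise, with adjusted p = 0.000876, and without replicate 3 it was 1.22 (adjusted p = 5.30e-06). In a fit of the 6 WAT arrays alone the adjusted p was 0.0558. In the authors' deposited table the fold of linear means was 3.04.

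Slc25a42, the coenzyme A importer, read 159, 194 and 229.9 in WAT of KO and 82.6, 70.7 and 87.8 in WAT of WT. The groups did not overlap, and the log2 difference was 1.12 ± 0.14 (adjusted p = 0.00132); without replicate 3 of KO it was 0.996. This call was kept in all 24 alternatives run, with adjusted p from 0.000132 to 0.0371. Slc25a48 read 35.7, 31.7 and 49.7 in WAT of KO and 17.2, 15.1 and 14.1 in WAT of WT, again with no overlap, and rose by 0.79 ± 0.15 (adjusted p = 0.0185). Slc25a22 read 336, 392 and 429 in WAT of KO and 265, 246 and 276 in WAT of WT, with no overlap, and rose by 0.52 ± 0.10 (adjusted p = 0.018). Without replicate 3 of KO the rises were 0.66 for Slc25a48 and 0.45 for Slc25a22. Leaving out any one WT array of WAT ended the calls of Slc25a48 and Slc25a22, as did replicate 2 of KO for Slc25a22, so that 2 carriers stayed called without a WT array; over all alternatives the adjusted p reached 0.0998 for Slc25a48 and 0.149 for Slc25a22.

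These 4 carriers were all higher in BAT than in WAT, and the brown-fat markers moved with them: 9 of 13 were called higher in WAT of KO and none lower, with Ucp1 higher by 7.15. Of the 17 muscle markers, 1 was called higher in WAT of KO, Myh4, a myosin heavy chain (2.64 ± 0.53); the median was 0.96 and 7 had an unadjusted p under 0.05 (limma). The summed intensity of both lists in each WAT array is given above, and their part in the carrier differences was not tested. Of the other carriers with large depot differences, Slc25a33 differed by 0.46 ± 0.13 between WAT of KO and WAT of WT (adjusted p = 0.0916) and Slc25a51 by 0.52 ± 0.16 (adjusted p = 0.148). Slc25a13 differed by -0.72 ± 0.29 and Slc25a21 by -0.93 ± 0.47; without replicate 3 of KO these were -0.27 and -0.16, and none of the 4 values passed the test. Slc25a3, Slc25a5, Slc25a53 and Slc25a54 lay so near 0 in WAT that their sign turned with the scaling.

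**Figure D3:**
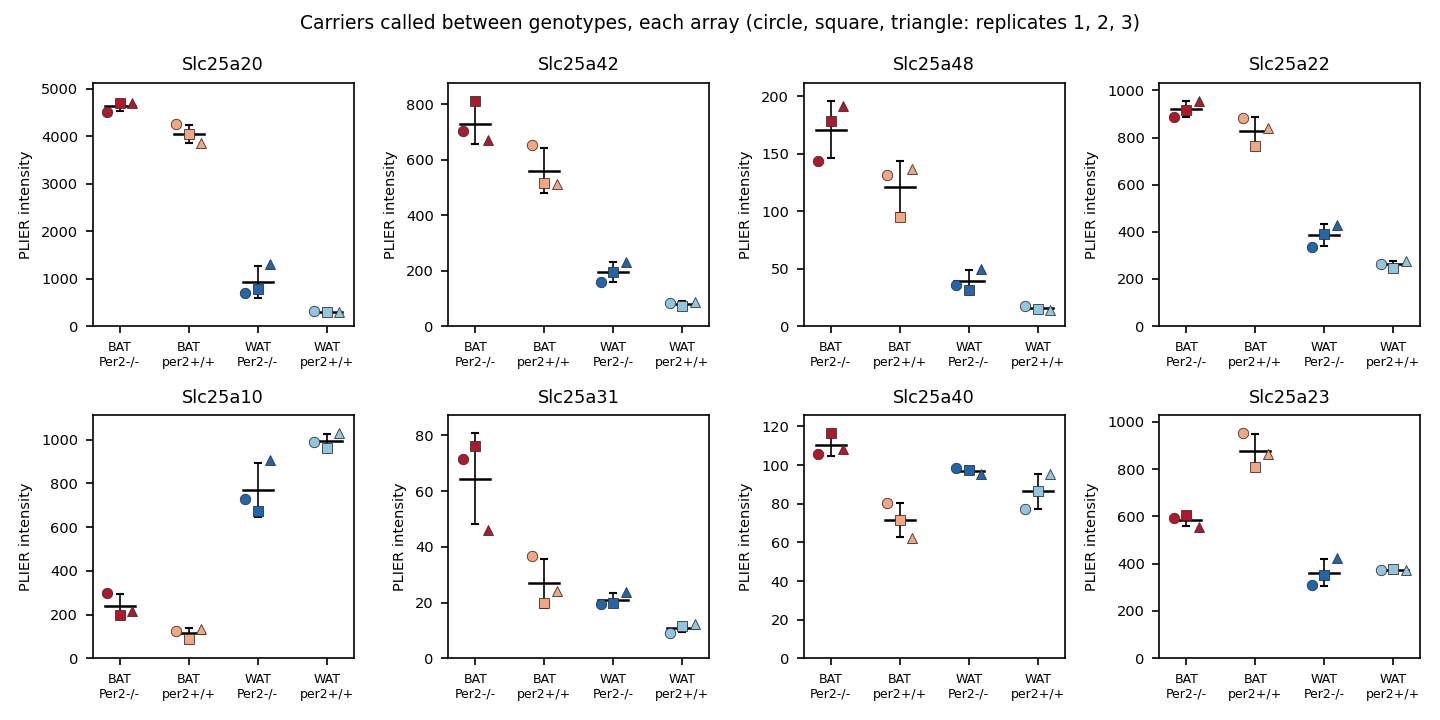
PLIER intensity of the 8 carriers called between genotypes in each of the 12 arrays, with mean and SD (bars) per group of 3. The upper row was called in WAT, where the Per2-/- arrays lie above the per2+/+ arrays, and the lower row in BAT, where Slc25a10, Slc25a31 and Slc25a40 lie higher and Slc25a23 lower in Per2-/- mice.

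In BAT 4 carriers were called between genotypes, Slc25a10, Slc25a31 and Slc25a40 higher and Slc25a23 lower in KO; over all genes 1.72% were called, 0.908% higher and 0.813% lower. The median carrier differed by 0.05 and the median gene by 0.03, and 8 carriers (17.4%) had an unadjusted p under 0.05, against 12.5% of all genes.

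Slc25a10, the dicarboxylate carrier, read 299.9, 199 and 215 in BAT of KO and 124, 86.2 and 133 in BAT of WT. The groups did not overlap, and KO was higher by 0.96 ± 0.17 (adjusted p = 0.0169). Slc25a31, the testis ADP/ATP exchanger, read 71.4, 76.2 and 45.9 in BAT of KO and 36.8, 19.9 and 24.1 in BAT of WT. Every KO array was above every WT array, and the log2 difference was 0.91 ± 0.16 (adjusted p = 0.0168); in WAT it was 0.46 ± 0.16 and was not called (adjusted p = 0.226).

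Slc25a40, a glutathione carrier, read 106, 116 and 108 in BAT of KO and 80.4, 71.7 and 62.4 in BAT of WT, with no overlap and a log2 difference of 0.53 ± 0.10 (adjusted p = 0.0172). Its paralog Slc25a39 differed by 0.01 ± 0.10 and was not called. Slc25a23, a calcium-regulated ATP-Mg carrier, read 594, 606 and 554 in BAT of KO and 951, 809 and 864 in BAT of WT. All KO arrays were lower, the log2 difference was -0.57 ± 0.11 (adjusted p = 0.0249), and its paralogs Slc25a24 (0.08), Slc25a25 (0.13) and Slc25a41 (-0.01) were not called.

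These calls were close to the threshold. None was called by limma without replicate 1 of BAT of KO, when 9 carriers had an unadjusted p under 0.05, and 1 was called without replicate 2 or 3 of BAT of KO or replicate 2 or 3 of BAT of WT. Over all alternatives the highest adjusted p was 0.068 for Slc25a10, 0.0859 for Slc25a31, 0.0872 for Slc25a40 and 0.118 for Slc25a23. With the authors' deposited p-values on log values, adjusted over all genes, all 4 were called, and Slc25a37, Slc25a42 and Slc25a48 besides. Slc25a37, at -0.55 ± 0.15 and not called (adjusted p = 0.11), passed when replicate 3 of the WAT of KO was left out (adjusted p = 0.0307). In BAT the brown-fat marker sums of KO and WT overlapped, and none of 13 markers was called (2 at an unadjusted p under 0.05, limma). Without replicate 3 of the WAT of KO, 2 of them were called higher. None of 17 muscle markers was called in BAT, but their median, KO minus WT, was -0.996. Of these 17, 6 had an unadjusted p under 0.05 (limma), against 12.5% of all genes. The part of muscle in the BAT carrier calls was not tested.

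**Figure D4:**
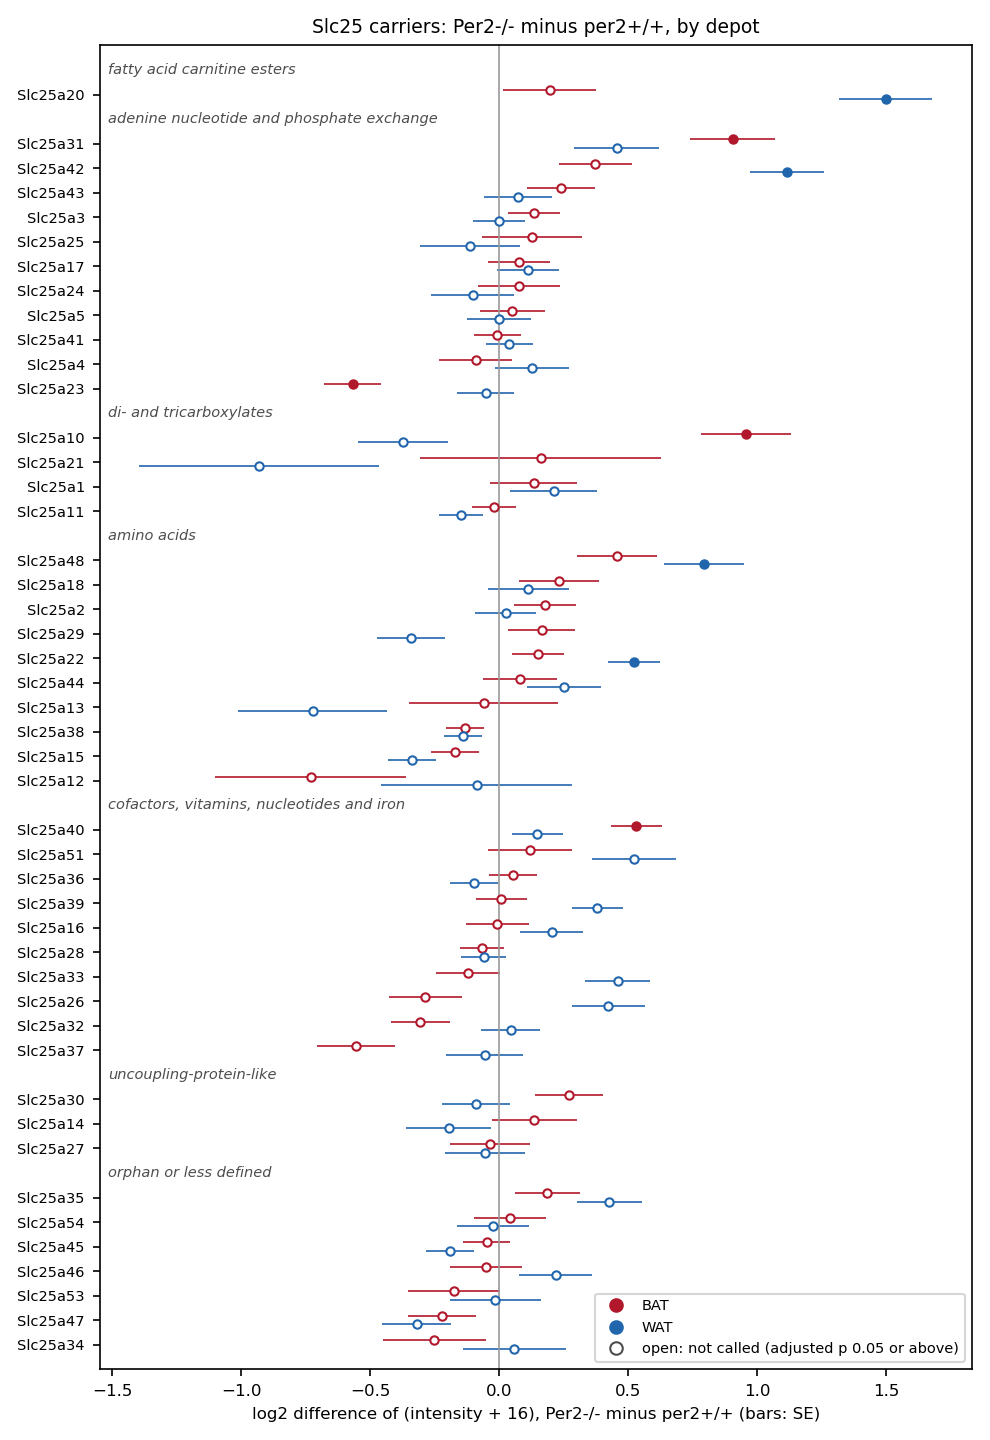
Log2 difference of (intensity + 16), Per2-/- minus per2+/+, for the 46 carriers grouped by what they carry, in BAT (red) and in WAT (blue). Groups held 3 arrays each, and bars are 1 standard error from a spread shared by all 12 arrays. Filled points passed the test: 4 in BAT and 4 in WAT.

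The effect of Per2 loss differed between depots for 2 carriers, Slc25a10 higher and Slc25a20 lower, against 0.592% of all genes, 0.316% higher and 0.276% lower. For Slc25a10 the KO minus WT difference was 0.96 in BAT and -0.37 in WAT, and the gap between them, 1.33 ± 0.25, had an adjusted p of 0.0375. The WAT value was not called by itself (adjusted p = 0.376), although all 3 KO arrays lay below the WT arrays. For Slc25a20 it was 0.20 in BAT and 1.499 in WAT, a gap of -1.30 ± 0.25 (adjusted p = 0.0498). Without replicate 3 of the WAT of KO the gaps were 1.45 (adjusted p = 0.00769) and -1.03 (adjusted p = 0.000593). Over 22 alternatives the Slc25a10 call was lost in 11 and the Slc25a20 call in 16, with adjusted p up to 0.12 and 0.145. Omission of most single arrays ended each: for Slc25a10 all but replicate 3 of BAT of WT and replicate 3 of WAT of KO, and for Slc25a20 all but replicates 1 and 3 of WAT of KO. The other 2 WAT-called carriers with the largest gaps, Slc25a42 at -0.74 ± 0.20 and Slc25a22 at -0.37 ± 0.14, did not pass (adjusted p = 0.186 and 0.423).

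Start-site sequences are shown for the carriers most changed between genotypes, 2 from WAT and 2 from BAT, to set them beside the values above. They are the 250 bases before the start listed in RefSeq (GRCm38.p6), written 5′ to 3′ on the gene's strand, and capitals mark the motifs searched for. The Slc25a20 window is chr9:108661886-108662135 on the plus strand, the Slc25a42 window chr8:70212282-70212531 on the minus strand, the Slc25a10 window chr11:120491587-120491836 on the plus strand and the Slc25a31 window chr3:40708621-40708870 on the plus strand.
Slc25a20: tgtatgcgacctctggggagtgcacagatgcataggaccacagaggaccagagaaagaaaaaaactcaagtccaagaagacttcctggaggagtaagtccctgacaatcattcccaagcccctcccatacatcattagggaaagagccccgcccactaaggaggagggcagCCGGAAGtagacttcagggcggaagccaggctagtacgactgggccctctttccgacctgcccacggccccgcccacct
Slc25a42: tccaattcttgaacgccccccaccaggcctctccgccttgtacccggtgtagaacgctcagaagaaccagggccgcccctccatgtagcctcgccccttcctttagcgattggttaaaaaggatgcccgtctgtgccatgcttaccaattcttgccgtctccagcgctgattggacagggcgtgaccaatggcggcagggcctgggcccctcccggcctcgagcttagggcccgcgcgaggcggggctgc
Slc25a10: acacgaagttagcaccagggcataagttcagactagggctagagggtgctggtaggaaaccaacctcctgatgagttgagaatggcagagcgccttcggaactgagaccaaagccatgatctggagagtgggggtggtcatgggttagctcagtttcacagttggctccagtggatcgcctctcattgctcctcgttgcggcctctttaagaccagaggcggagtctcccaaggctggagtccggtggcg
Slc25a31: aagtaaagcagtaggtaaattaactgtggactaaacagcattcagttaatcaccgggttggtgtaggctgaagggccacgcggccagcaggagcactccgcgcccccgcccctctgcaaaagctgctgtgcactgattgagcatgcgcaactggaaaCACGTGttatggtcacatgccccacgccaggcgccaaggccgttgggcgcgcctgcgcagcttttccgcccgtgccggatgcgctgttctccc

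The motifs were the E-box CACGTG, which the clock activators bind and through which Per2 protein represses, the ETS core CCGGAAG, found at many genes of mitochondria, and AAGGTCA, the half-site of estrogen-related receptors. All were searched on both strands in windows of the 250 bases before the listed start, for the 36 carriers with an entry (46 windows). CACGTG stood in 8 windows (17.4%) against 6.02% of 32851 windows of all genes, those of Slc25a1, Slc25a13, Slc25a14, Slc25a15, Slc25a31, Slc25a33 and Slc25a36. Of these 7 carriers, Slc25a31 in BAT was the one called between genotypes. CCGGAAG stood in 6 windows (13.04%) against 6.91% of all, among them that of Slc25a20, and AAGGTCA in 1 (2.17%) against 4.08%, that of Slc25a34. Windows of one gene may overlap, and a match of letters is a description of the sequence.

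Genes that work beside the carriers were counted from lists drawn up from general knowledge. Of 6 enzymes of the malate-aspartate and glycerol phosphate shuttles, 5 were higher and 1 lower in BAT in each genotype (median log2 difference 1.11 in KO and 1.33 in WT), and 2 were higher in WAT of KO: Gpd2, the mitochondrial glycerol phosphate dehydrogenase (1.73 ± 0.20), and Gpd1, its cytosolic partner (1.02 ± 0.20). Got2, the matrix transaminase that hands aspartate to Slc25a12 and Slc25a13, was the 1 lower in BAT, by -3.02 ± 0.40 in KO and -3.21 ± 0.40 in WT as signed log2 differences. Of 5 measured genes listed for the carnitine shuttle, the pathway of the substrate of Slc25a20, 3 were higher and 2 lower in BAT in each genotype (medians 1.07 and 1.17). In WAT of KO Cpt2 (0.93 ± 0.19) and Crat (1.16 ± 0.22), both matrix carnitine acyltransferases, rose. Cpt1c, the brain form of carnitine palmitoyltransferase 1, fell there (-0.36 ± 0.08). It was dim, averaging 34.1 ± 0.94 in WAT of KO and 48.5 ± 1.73 in WAT of WT. Mpc1, a subunit of the pyruvate carrier, rose in WAT of KO by 0.78 ± 0.18. Without replicate 3 of the WAT of KO these 6 calls held, at 1.44 for Gpd2, 0.71 for Gpd1, 0.65 for Cpt2, 0.82 for Crat, -0.36 for Cpt1c and 0.54 for Mpc1, and Got2 differed between depots of KO mice by -3.65. Like Gpd2, Gpd1, Cpt2, Crat and Mpc1, the brown-fat markers rose in WAT of KO, 9 of 13 being called higher with that array and 9 without it. Their part in these differences, and in those of the genes that follow, was not tested. Got2 read 2724, 2797 and 745 in WAT of KO and 2478, 2623 and 2598 in WAT of WT. In BAT it read 195, 247 and 180 in KO and 218, 241 and 346 in WT. The sum of the epididymis and testis markers was likewise low in BAT and, among WAT arrays, lowest in replicate 3 of KO. The part of those markers in the Got2 difference was not tested.

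Among 16 ATP synthase genes, which use the ADP and phosphate that carriers bring in, 13 were higher and 2 lower in BAT in each genotype (medians 1.06 in KO and 1.42 in WT). The 2 lower were Atp5g1 and Atpif1, which among WAT arrays were lowest in replicate 3 of KO, as the epididymis and testis markers were. The part of those markers was not tested. None of the 16 was called in WAT between genotypes. Their median there, KO minus WT, was 0.32 (0.21 without replicate 3 of KO), where the median of all genes was -0.01. In that comparison limma gave 9 of the 16 an unadjusted p under 0.05, against 13.9% of all genes. Atp5e, a small subunit, was lower in BAT of KO (-0.76 ± 0.13, adjusted p = 0.0106). Of 14 outer membrane channels and import proteins, 14 were higher in BAT of KO and 13 in BAT of WT (medians 0.95 and 1.11), and Tomm40, the import pore, rose in WAT of KO (0.41 ± 0.09). All 5 measured citrate export partners of Slc25a1 were higher in BAT in each genotype (medians 1.27 and 0.91), and Cs, citrate synthase, rose in WAT of KO (0.88 ± 0.17). Of 10 genes of branched-chain amino acid breakdown, the pathway Slc25a44 feeds, 9 were higher in BAT in each genotype (medians 1.18 and 1.44); Bckdhb (1.39 ± 0.22) and Dld (0.76 ± 0.17) rose in WAT of KO and Acad8 in BAT of KO (0.42 ± 0.08). Without replicate 3 of the WAT of KO the WAT differences were 0.64 for Cs, 1.06 for Bckdhb and 0.50 for Dld, all called, and 0.37 for Tomm40, not called (adjusted p = 0.0564). Acaca (0.48), Bckdha (0.40) and Idh1 (-0.44) were called in addition.

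Of 11 measured genes of haem and iron-sulfur synthesis, which draw on the iron and glycine carriers, 7 were higher and 2 lower in BAT in each genotype (medians 0.71 in KO and 0.73 in WT). Alad, an early enzyme of haem synthesis, was higher in KO in both depots, by 0.97 ± 0.10 in BAT and 0.77 ± 0.10 in WAT, while none of Slc25a28, Slc25a37 and Slc25a38 was called between genotypes. Of 5 measured calcium uptake genes, Letm1 rose in WAT of KO (0.57 ± 0.11). Of 4 proteins of the same fold under other names, Ucp1, Ucp3 and Mtch2 were higher in BAT in each genotype. Ucp1 (7.15 ± 0.17) and Ucp3 (0.91 ± 0.20) rose in WAT of KO, and Ucp1 alone of them was called for the gap between depots (-7.14 ± 0.24). Without replicate 3 of the WAT of KO the WAT differences were 0.88 for Alad, 0.44 for Letm1, 6.90 for Ucp1 and 0.62 for Ucp3, all called, and of the haem genes Alas1 (-0.61) and Ppox (-0.46) were called in addition.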

How the data were processed

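RNA of BAT and WAT from male KO and WT mice was hybridised to 12 arrays, 3 per group. The authors deposited intensity on a linear scale, made with PLIER per the submitters' processing notes; its version and whether arrays were scaled to each other are not stated there. The p-value columns, per the file headers, hold regularized t tests of Cyber-T 8.01 (hdarray 3.71, R 2.2.1) of linear and of natural log values, unadjusted, and the deposited score is a signed fold of group means.

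Of 35557 probe sets, 21789 name 1 gene in the platform annotation, 1621 several and 12147 none that is listed; 21698 were matched to RefSeq (GRCm38.p6) by gene identifier and 91 were not, with 0 symbols changed. The brightest probe set per gene gave 19938 genes. Values were fitted as log2(intensity + 16) by limma (3.58.1, under R 4.3.3) as 4 group means; the fit had 8 residual degrees of freedom and borrowed 3.51 from the other genes. Adjustment was Benjamini-Hochberg over the genes of each of 5 comparisons. The number of arrays limits the precision, with a median SE of 0.127 for a log2 difference. Each gene has 1 spread for the 4 groups, so leaving out an array can move the SE of comparisons that do not use it. The files used hold no detection calls, so a dim gene may be unexpressed; Slc25a2, Slc25a18, Slc25a41, Slc25a53 and Slc25a54 were under 50 in every array. The labels name biological replicates without saying whether animals were pooled.

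Genes are named when called between genotypes or for the difference between depots, when among the 6 largest called rises or falls between depots, or when they belong to a set of paralogs; further members stand as examples of their group. Carriers, the 16 lists of partner and marker genes and the rules were chosen with earlier results of these data known. Alternatives were other added constants, scalings, variance models, arrays, replicate blocks, brighter genes only, other probe set rules, the authors' p-values and the omission of each array. The procedure was tested on simulated data.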

Additional observations from a re-analysis of the deposited data

Results flagged for a closer look

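Slc25a10 and Slc25a20 stood out because the effect of Per2 loss differed between BAT and WAT by a test of the difference itself. For Slc25a10 the KO minus WT difference in BAT exceeded that in WAT by 1.33 on the log2 scale (adjusted p = 0.0375, limma). For Slc25a20 the gap ran the other way, at -1.30 (adjusted p = 0.0498). Ucp1 and 6 other brown-fat markers had lower gaps as well, with a median of -2.63 over the 13 markers, and their part in the Slc25a20 value was not tested. Neither carrier call was stable: of 22 alternatives, 11 ended that of Slc25a10 and 16 that of Slc25a20.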

How the results depend on the processing

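Of 1937 repeats of single carrier calls under an alternative, 1853 kept the call, 84 lost it and 0 turned the direction; 32 of the 36 BAT minus WAT calls in KO mice and 33 of the 36 in WT mice were kept in all of them. A fit of the 6 arrays compared left 1 carrier and 127 genes called in WAT between genotypes. In BAT between genotypes 2 carriers were called with the replicate number as a fixed block, 7 carriers and 1072 genes with the authors' p-values, and the median over carriers among the brighter genes was 0.0088. The median BAT minus WAT difference of the carriers in KO mice was 0.73 with 1 added, 0.27 with 64 added, 0.50 after quantile normalization, 0.72 after median centring and 0.90 among the brighter genes; in WT mice it was 0.68, 0.21, 0.56, 0.75 and 1.10 in the same order. For the difference between depots, 0 carriers were called with 1 added (limma; 12 at an unadjusted p under 0.05) and 1 carrier with 64 added, after median centring, with the fixed block (76 genes), with the random block and among the brighter genes (73 genes, carrier median -0.21). Leaving out 1 array at a time gave 2 to 4 carriers and 226 to 876 genes called in WAT, 0 to 5 carriers and 165 to 1033 genes in BAT, and 0 to 2 carriers and 59 to 372 genes for the difference between depots, where 10 to 13 carriers kept an unadjusted p under 0.05 when none was called. Both highest counts of genes in WAT and BAT came without replicate 3 of the WAT of KO. The carrier median then ranged from 0.018 to 0.062 in BAT between genotypes and from 0.40 to 0.52 for BAT minus WAT in KO mice. Deviations of same-numbered arrays correlated at -0.119 to 0.092. This cannot decide whether same-numbered arrays came from one animal, since tissues of one mouse need not share deviations. The replicate block left the other carrier counts within 1.5 times. Depth does not apply to arrays, and dim carriers are limited by the 16 added to each value.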
